A study of Mus musculus with 4 samples.

Results

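Genes of the proteasome, the protease complex that degrades proteins tagged with ubiquitin, were examined in primary mouse hepatocytes given non-essential amino acids (NEAA) and in control hepatocytes. Members were all rows whose gene is protein-coding in the GENCODE M21 annotation (mouse assembly GRCm38) and whose symbol begins with Psma, Psmb, Psmc, Psmd, Psme, Psmf or Psmg. The annotation has 50 such genes, of which 34 had values, on 99 of the 37363 rows of each sample, and the other 16 genes are not analysed here. The 34 genes are among 19284 identifiers in all. One of them, Psmc3ip, is caught by its symbol but codes for a meiotic recombination factor and not for a proteasome protein. The NEAA group and the control group had 2 samples each, all of them liver hepatocytes, and no agent or genotype is labelled for either group beyond NEAA or control. The sources used here do not give the dose, mixture or length of the NEAA treatment, or the strain and age of the mice. No label says that the samples came from separate animals or cultures, so the p-values measure the spread among these 4 samples alone and that spread may be technical.

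The proteasome is built from a barrel and a cap. The barrel, called 20S, stacks rings of alpha subunits (Psma), which gate the entrance, around rings of beta subunits (Psmb), some of which cut the substrate. The cap, called 19S, holds a ring of ATPases (Psmc) that unfold the substrate and a set of other subunits (Psmd) that bind ubiquitin, remove it or hold the particle together. Interferon replaces the cutting subunits by the inducible Psmb8, Psmb9 and Psmb10 and raises the ring activator made of Psme1 and Psme2, and dedicated chaperones (Psmg for the barrel, Psmd5, Psmd9 and Psmd10 for the cap) put the particle together. In the liver the complex works beside autophagy in the turnover of cell proteins, which returns free amino acids.

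The deposited rows name a gene and no transcript, and a row is called a model below, numbered by its order within the gene, so a value cannot be read as the level of the coding mRNA. All 34 genes had as many models as GENCODE lists retained-intron transcripts for them, and all 16 genes without values have no such transcript. The same match in number held for 8991 of the 9265 protein-coding identifiers with rows, so it is not particular to these genes. The 99 retained-intron transcripts are non-coding RNAs of 185 to 3466 bases. In the median transcript 60.0% of the bases lie in exons that coding transcripts of the gene also use (range 5.46% to 97.1%). Of these transcripts 45, from 20 genes, hold at least 1 whole intron of the gene's principal coding transcript, and 54 hold none of its introns whole. The whole introns number 46, from 72 to 1452 bases long, and 45 lie between coding exons. In 37 of them the reading frame, followed with all earlier introns removed, meets a stop codon inside the intron, and in 1, of Psmb10, the stop codon spans the boundary of exon and intron.

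Introns of 4 genes that the results turn on are shown here because annotated retained-intron transcripts of these genes hold them and the spliced mRNA does not. Which of these transcripts a row measures is not given, and none of the 3 of Psmd8 holds a whole intron. They were read from GENCODE M21 transcript sequences of GRCm38, on the gene's strand, and numbered along the principal coding transcript. Capitals mark the first and last bases, at the splice sites, and the first in-frame stop codon where the intron has one. The introns of Psme1 lie at chr14:55579834-55579930, chr14:55580042-55580113 and chr14:55580664-55580743 on the plus strand, and 4, 3 and 3 of its 7 retained-intron transcripts hold them. Those of Psme2 lie at chr14:55589512-55589618 and chr14:55589399-55589480 on the minus strand, in 2 of 7 transcripts each. The introns of Psmc4 lie at chr7:28047283-28047365 and chr7:28042508-28042649 on the minus strand, and that of Psmb8 at chr17:34199381-34199570 on the plus strand.
Psme1 intron 3: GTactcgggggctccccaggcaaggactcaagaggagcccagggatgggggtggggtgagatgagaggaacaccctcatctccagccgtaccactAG
Psme1 intron 4: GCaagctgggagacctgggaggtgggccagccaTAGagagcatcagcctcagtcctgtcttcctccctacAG
Psme1 intron 7: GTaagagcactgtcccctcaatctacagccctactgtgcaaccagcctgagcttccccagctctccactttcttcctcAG
Psme2 intron 4: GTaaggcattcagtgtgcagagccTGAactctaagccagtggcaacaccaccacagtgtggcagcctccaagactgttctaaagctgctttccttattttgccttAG
Psme2 intron 5: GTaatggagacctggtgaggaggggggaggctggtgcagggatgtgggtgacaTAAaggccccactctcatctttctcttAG
Psmc4 intron 4: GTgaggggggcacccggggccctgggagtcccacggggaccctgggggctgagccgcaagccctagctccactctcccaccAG
Psmc4 intron 8: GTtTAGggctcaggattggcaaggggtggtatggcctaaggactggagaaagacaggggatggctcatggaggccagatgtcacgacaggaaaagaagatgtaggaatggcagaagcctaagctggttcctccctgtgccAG
Psmb8 intron 2: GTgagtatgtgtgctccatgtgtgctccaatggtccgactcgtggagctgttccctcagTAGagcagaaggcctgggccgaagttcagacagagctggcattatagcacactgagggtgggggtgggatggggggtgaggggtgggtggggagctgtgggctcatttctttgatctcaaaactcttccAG
Psme1 intron 4 begins with GC in place of the usual GT, the only such case among the 46 introns. All 46 end with AG.

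For 9 genes with 1 model and 1 retained-intron transcript each, the model can be read as that transcript, a match by number and not by name. Among them Psmd5 and Psmc2 hold whole introns between coding exons. Their donor sites are shown as 12 exon bases followed by 18 intron bases, with the first intron bases in capitals, from chr2:34865656-34865981 and chr2:34856558-34857637 (Psmd5, minus strand) and chr5:21795845-21796532 (Psmc2, plus strand).
Psmd5 intron 3 donor: gttgctaaagcgGTgagttcactagagcct
Psmd5 intron 7 donor: tacagaagacagGTtggtgtgacttgactt
Psmc2 intron 4 donor: atgagctcactgGTacgtatttatcccaac
In these introns the reading frame meets its first stop 46, 27 and 60 bases in.

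FPKM, fragments per kilobase of model scaled to the size of the library, carry no depth, so the number of reads behind a value is unknown and no counting interval can be given. Over protein-coding rows the FPKM summed to 25166 and 25124 in the NEAA samples and to 25746 and 27851 in the control samples. Across the 44 proteasome models at 1 FPKM or more, Pearson's r of log2 values was 0.784 between the NEAA samples, 0.801 between the control samples and 0.717 to 0.915 between samples of different groups, as a description of values that share the same libraries. Across all models at that level it was 0.862 between the NEAA samples and 0.869 between the control samples. Between samples of different groups it was 0.744 to 0.776, lower than within groups. Of 14 hepatocyte markers 3 had values, together 65.3 and 63.9 FPKM in the NEAA samples and 25.9 and 32.9 FPKM in the control samples. Among them the sums of Trf (transferrin) and Ahsg (fetuin A) rose with NEAA (limma adjusted p = 0.0279 and 0.0348), and their part in the results below was not tested. The third, Ass1, overlapped between groups (log2 fold change of the sum 0.24, limma adjusted p = 0.599). Of the 3 tested models of these markers 0 were called. Alb and the other 10 are not analysed here. Lists of markers for other liver cells (lymphocytes, cholangiocytes, stellate cells with fibroblasts, macrophages, endothelium) had no tested model, and each list summed to between 0 and 3.12 FPKM in every sample. In that order, 6 of 7, 1 of 5, 6 of 9, 2 of 11 and 6 of 8 listed genes had values. A low sum of these rows therefore cannot show that a cell type was absent. With RNA from a culture, fewer cells of a type and less RNA per cell cannot be told apart.

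No proteasome model passed the test, and on the log2(FPKM + 1) scale most were close to their control level. Limma was run on log2(FPKM + 1) for the 6064 models whose mean reached 1 FPKM, with Benjamini-Hochberg adjustment over all of them. That level was reached by 44 member models of 25 genes, and the other 55 had means up to 0.990 FPKM. At an adjusted p under 0.05, limma called 0 of the 44, where it called 2.9% of all tested models (1.95% higher and 0.956% lower in NEAA), and the smallest adjusted p among members was 0.0815. At an unadjusted p under 0.05 it was 6 of 44 (1 higher and 5 lower in NEAA), against 25.9% of all tested models (10.6% and 15.3%). The groups did not overlap for 19 of 44, against 58.8% of all tested models. NEAA was higher without overlap in 6 of 44 (13.6%), against 22.8% of all tested models, and lower in 13 of 44 (29.5%), against 36.0%.

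On the log2(FPKM + 1) scale the size of the differences can be bounded for most members. That scale understates changes of low values, and the median member model had a mean of 2.45 FPKM, so larger changes in FPKM itself are not bounded. The 95% interval of the log2 fold change lay within a change of 1 either way for 32 of 44 models, against 65.5% of all tested models. A log2 fold change of 1 or more in size was seen in 2 of 44, against 8.15%. The median log2 fold change was -0.14 over member models and -0.09 over all tested models, with 31 of 44 members below 0, against 58.9% of all tested models. After each sample was rescaled to the same sum, the member median was 0.00, with 22 of 44 below 0, and that of all tested models was 0.05. This 0.05 is the background of the rescaled medians given by role below. The share of all tested models below 0 after rescaling is not given here. All rows summed to 65718.5 and 60942 FPKM in the NEAA samples and to 73600 and 73376.5 FPKM in the control samples. The highest mean of a single tested model was 25736 FPKM, so the rescaling depends strongly on few rows. With the rows of Gm26917 and Gm42418 left out of that sum, the member median was -0.07, with 27 of 44 below 0. By quantile normalization it was -0.09, with 27 of 44 below 0. The median absolute log2 fold change was 0.21 over member models and 0.29 over all tested models. The 99 rows together held 197 and 219 FPKM in the NEAA samples and 226 and 208 FPKM in the control samples, so the groups overlapped.

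**Figure D1:**
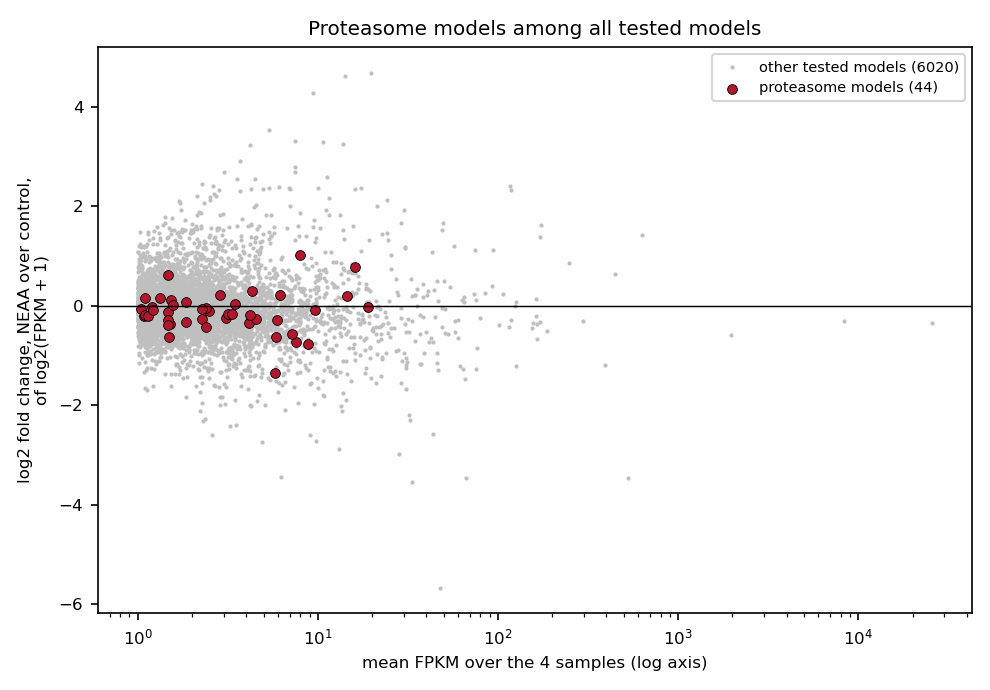
Log2 fold change (NEAA over control, of log2(FPKM + 1)) of each tested model against its mean FPKM over the 4 samples (log axis), with the 44 proteasome models in red and the other models in grey. The red points run from -1.36 to 1.02, and their mean FPKM do not exceed 19.1.

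Summed per gene, 27 member genes reached a mean of 1 FPKM and none was called (limma, adjusted over 4700 genes, of which 10.1% were called, 6.0% higher and 4.11% lower in NEAA), with the smallest adjusted p at 0.0536. At an unadjusted p under 0.05 there were 5 of 27 (2 higher and 3 lower in NEAA), against 30.7% of all genes tested (14.4% and 16.3%). The groups did not overlap for 14 of 27 genes, 3 with NEAA higher (11.1%) and 11 with NEAA lower (40.7%), against 60.6% of all genes tested (26.2% and 34.4%). The 95% interval lay within a log2 change of 1 either way for 22 of 27 genes, against 71.0%, and 1 of 27 had a log2 fold change of 1 or more in size, against 7.91%. The median log2 fold change was -0.11 over member genes and -0.06 over all genes tested, with 18 of 27 members below 0, against 55.1% of all genes tested. After rescaling to the same sum the member median was 0.04 and that of all genes tested 0.10. The sum and at least 1 tested model differed in sign for Psma3, Psma7, Psmb10, Psmc6, Psmd1, Psmd3, Psmd6 and Psme2.

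**Figure D2:**
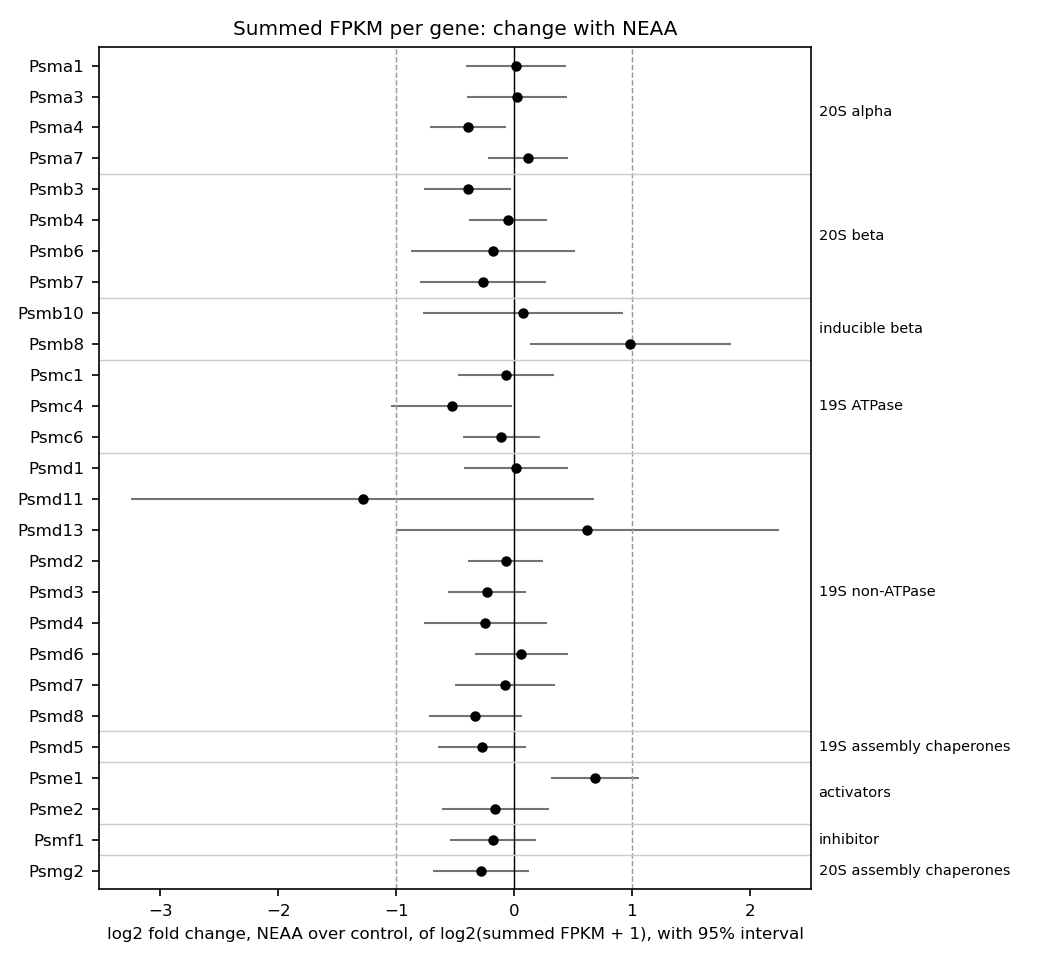
Log2 fold change (NEAA over control, on log2(summed FPKM + 1)) of the 27 genes tested on summed FPKM, as points with 95% intervals from limma, grouped by role, with dashed lines at a change of 1 either way. The intervals of Psme1 and Psmb8 lie wholly to the right of 0, those of Psma4, Psmb3 and Psmc4 wholly to the left, and those of Psmd11 and Psmd13 are the widest.

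The ring activator held the member with the smallest p. Psme1, the alpha subunit of the interferon-inducible ring that opens the barrel (ENSMUSG00000022216, chromosome 14, 55578123 to 55581529, plus strand), was higher in NEAA in a single dominant model. Psme1 model 1 measured 21.4 and 19.7 FPKM in the NEAA samples, against 11.04 and 12.2 FPKM in the control samples, and held 89.3% of the gene's FPKM. Both NEAA samples lay above both control samples. The log2 fold change came to 0.78 (SE 0.15, 95% interval 0.36 to 1.19, limma adjusted p = 0.0815). Summed over its 7 models, Psme1 measured 23.5 and 21.4 FPKM in the NEAA samples and 12.8 and 14.4 FPKM in the control samples. That is a log2 fold change of 0.69 (SE 0.14, 95% interval 0.31 to 1.06), just short of the threshold (limma adjusted p = 0.0536). The sum passed after rescaling to the same sum (limma adjusted p = 0.030, and 0.0404 without the rows of Gm26917 and Gm42418), by quantile normalization (0.0466) and at a filter of 5 FPKM (0.0480). It did not pass without a mean trend (0.0511), with a pseudocount of 0.1 (0.0561), without a level filter (0.0831) or with a replicate block (0.107). With any single sample left out, the log2 fold change of the sum lay between 0.61 and 0.77. The other 6 Psme1 models had FPKM from 0.00176 to 1.11 and were not tested. Of these, models 2 and 4 were apart with NEAA higher, models 3 and 7 with NEAA lower, and models 5 and 6 overlapped. The gene Emc9 on the opposite strand shares 14 bases with Psme1, and the sources used here do not give the strand setting of the counting.

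Psme2, the partner subunit of Psme1 in the same ring (chromosome 14, 55587441 to 55591113, minus strand), had a like level and overlapping groups. Its 7 models summed to 18.97 and 24.0 FPKM in the NEAA samples, against 25.2 and 22.6 FPKM in the control samples. The log2 fold change was -0.16 (95% interval -0.61 to 0.29, limma adjusted p = 0.569). Whether Psme1 and Psme2 differ in their response was not tested. Psme2 has a close copy, Psme2b on chromosome 11, and reads that the 2 genes share could have been split between them. Psme3 and Psme4, which code for other activators, are not analysed here.

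**Figure D3:**
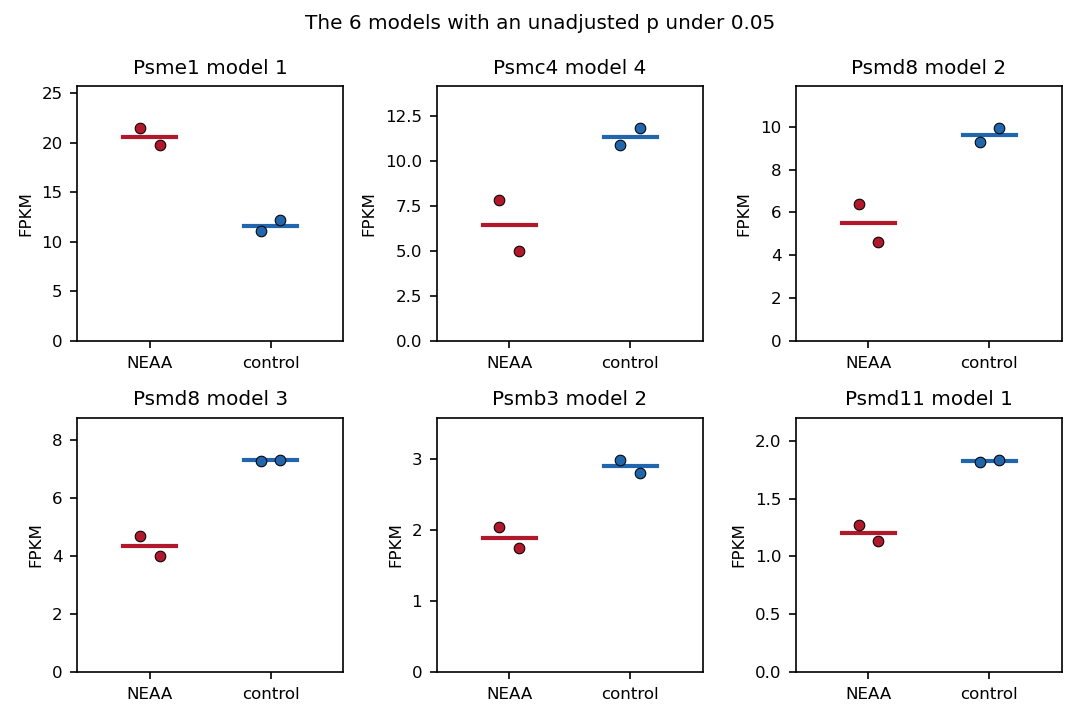
FPKM (axes from 0) of the 6 models with an unadjusted p under 0.05 in the 2 NEAA and the 2 control samples, as points with a line at the group mean. Psme1 model 1 is higher in both NEAA samples, and models of Psmc4, Psmd8, Psmb3 and Psmd11 are lower in both, while none of the 6 passed the adjusted threshold.

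Among the inducible beta subunits, Psmb8 and Psmb9 had higher sums in both NEAA samples and Psmb10 did not. Psmb8 (chromosome 17, 34197721 to 34201454), which replaces the chymotrypsin-like subunit, summed to 5.39 and 4.99 FPKM in the NEAA samples, against 3.27 and 1.28 FPKM in the control samples. The fold change on the log2 scale was 0.99 (95% interval 0.14 to 1.84, limma adjusted p = 0.125). The size rests on 1 control sample: it was 0.54 without control 2 (adjusted p = 0.202) and 1.44 without control 1 (0.0834). All 4 Psmb8 models had a higher mean in NEAA, and 1 of them passed the level filter, at 1.83 and 2.07 FPKM in the NEAA samples against 1.58 and 0.418 FPKM in the control samples (limma adjusted p = 0.315). The antisense gene Gm20496 overlaps Psmb8.

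Psmb9 (chromosome 17, 34181987 to 34187764, minus strand), which replaces the caspase-like subunit and lies near Psmb8, stayed under the level filter and was not tested. It summed to 0.894 and 1.03 FPKM in the NEAA samples and to 0.446 and 0.0143 FPKM in the control samples. Psmb9 model 2 measured 0.403 and 0.514 FPKM in the NEAA samples, against 0.000906 and 0.00119 FPKM in the control samples, and model 1 was listed at 0 in all 4. Tap1, a peptide transporter gene, overlaps Psmb9 by 212 bases on the opposite strand. Psmb10, which replaces the trypsin-like subunit, summed to 3.08 and 3.27 FPKM in the NEAA samples and to 4.42 and 1.90 FPKM in the control samples, so the groups overlapped (log2 fold change 0.08, 95% interval -0.77 to 0.92, limma adjusted p = 0.890). It was 0.53 without control 1 and -0.38 without control 2. Psmb10 model 3, the only one tested, measured 3.64 and 1.26 FPKM in the control samples and 2.05 and 2.14 FPKM in the NEAA samples. Under the level filter, models 2, 4 and 5 were apart with NEAA higher and model 1 overlapped. The antisense gene Gm16156 overlaps Psmb10.

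Other genes that interferon raises in antigen presentation were set beside these subunits. Of 19 listed genes 12 had values and 8 had a tested model, and 0 of their 12 models were called, against 2.9% of all tested models. On summed FPKM 2 of 10 tested genes rose, against 6.0% of all genes tested, among them Stat2, a signal transducer of interferon. Stat2 measured 7.27 and 5.59 FPKM in the NEAA samples against 3.15 and 2.37 FPKM in the control samples (log2 fold change 0.98, SE 0.19, limma adjusted p = 0.0466). Genes that did not pass included Tap1 at 3.16 and 1.89 FPKM in the NEAA samples and 3.30 and 0.968 FPKM in the control samples, and Irf1 at 1.36 and 1.11 against 1.02 and 0.837 FPKM.

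Tested models of the alpha genes were, in the median, near their control level. Of 8 tested models of Psma1, Psma3, Psma4 and Psma7, 4 had a log2 fold change below 0 and 4 above, with a median of -0.07, and of 0.08 after rescaling to the same sum. Psma7, the most abundant of them, summed to 20.1 and 20.2 FPKM in the NEAA samples, against 17.9 and 19.1 FPKM in the control samples. This gave a log2 fold change of 0.12 (95% interval -0.22 to 0.46, limma adjusted p = 0.565). Both NEAA sums lay above both control sums, by little. Psma3 summed to 9.65 and 9.53 FPKM in the NEAA samples and to 10.6 and 8.34 FPKM in the control samples, and its models pulled apart: model 3 measured 6.45 and 7.05 against 5.65 and 5.58 FPKM, and model 1 measured 1.08 and 0.737 against 3.01 and 1.14 FPKM. The transcript 3110056K07Rik overlaps Psma3 on the opposite strand.

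Among the 4 alpha genes tested on their sums, Psma4 was lowest relative to control. Psma4 summed to 2.58 and 2.78 FPKM in the NEAA samples, against 3.83 and 3.79 FPKM in the control samples, a separation wider than the spread within either group. Its log2 fold change was -0.39 (SE 0.12, 95% interval -0.71 to -0.06, limma adjusted p = 0.119), and of its models the one with the smallest p reached an adjusted p of 0.250. Psma1 measured 3.15 and 2.81 FPKM in the NEAA samples and 3.36 and 2.54 FPKM in the control samples. Psma8, a testis form of an alpha subunit, stayed between 0.00315 and 0.365 FPKM.

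Of the beta ring, 5 models of Psmb3, Psmb4, Psmb6 and Psmb7 were tested and all 5 had a log2 fold change below 0, against 58.9% of all tested models. Their median was -0.27 and their range -0.43 to -0.12. After rescaling to the same sum, 4 of 5 were below 0, with a median of -0.11. The 58.9% holds before rescaling only. Among the 5 tested models only that of Psmb3, a non-catalytic subunit, had groups apart. Psmb3 model 2 measured 2.05 and 1.75 FPKM in the NEAA samples, against 2.99 and 2.81 FPKM in the control samples. On the log2 scale the fold change was -0.43 (SE 0.13, 95% interval -0.78 to -0.08, limma adjusted p = 0.145). The gene's sum gave -0.39 (limma adjusted p = 0.148). Under the level filter and not tested, models of 2 other beta genes were apart with NEAA higher. Psmb6 model 1 measured 0.907 and 1.23 FPKM in the NEAA samples against 0.785 and 0.342 FPKM in the control samples. Psmb4 model 1 measured 0.641 and 0.654 against 0.449 and 0.378 FPKM.

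As sums, the catalytic subunit genes of the constitutive barrel that had values, Psmb6 and Psmb7, overlapped between groups. Psmb6, the caspase-like subunit, summed to 4.44 and 7.71 FPKM in the NEAA samples and to 7.32 and 6.27 FPKM in the control samples. Psmb7, the trypsin-like subunit, measured 1.64 and 2.32 FPKM in the NEAA samples and 2.13 and 3.04 FPKM in the control samples, on its only model, and Nek6 overlaps the gene on the opposite strand. Psmb4, also non-catalytic, summed to 2.95 and 2.64 FPKM in the NEAA samples and to 2.90 and 2.96 FPKM in the control samples, with a 95% interval of the log2 fold change of -0.38 to 0.28. Psmb5, the chymotrypsin-like subunit, is not analysed here.

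In the ATPase ring, 6 of 8 tested models had a log2 fold change below 0 and the median was -0.17, against 5 of 8 and -0.01 after rescaling to the same sum. Psmc4 (ENSMUSG00000030603, chromosome 7, 28041707 to 28050101, minus strand) had the lowest values relative to control. Psmc4 model 4, which held 60.6% of the gene's FPKM, measured 7.83 and 4.99 FPKM in the NEAA samples, against 10.9 and 11.8 FPKM in the control samples. Both NEAA samples lay under both control samples, and they differed more from each other than the control samples did. The log2 fold change was -0.76 (SE 0.24, 95% interval -1.43 to -0.09, limma adjusted p = 0.1604), and -0.48 without NEAA 2 (adjusted p = 0.271).

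The models of Psmc4 did not all go the same way. Psmc4 model 3 measured 4.35 and 3.43 FPKM in the NEAA samples and 5.02 and 4.09 FPKM in the control samples, with overlapping groups. Model 1, under the level filter, measured 0.692 and 0.60 FPKM in the NEAA samples against 0.250 and 0.259 FPKM in the control samples. The sum was 13.9 and 9.90 FPKM in the NEAA samples and 17.5 and 17.2 FPKM in the control samples (log2 fold change -0.53, SE 0.19, limma adjusted p = 0.156), and its log2 fold change was -0.30 without NEAA 2 (adjusted p = 0.326).

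Psmc6, another ATPase, was steady as a sum, at 12.8 and 12.8 FPKM in the NEAA samples and 13.9 and 13.8 FPKM in the control samples. Its log2 fold change was -0.11 (95% interval -0.44 to 0.22, limma adjusted p = 0.594). Beneath that sum, Psmc6 model 3 measured 5.11 and 5.42 FPKM in the NEAA samples against 6.02 and 7.34 FPKM in the control samples, while model 4 measured 3.46 and 2.87 against 2.81 and 2.34 FPKM. Both pairs of groups were apart, in opposite directions, and neither model passed (limma adjusted p = 0.325 and 0.420). Psmc1 measured 0.965 and 1.014 FPKM in the NEAA samples and 0.894 and 1.30 FPKM in the control samples. Psmc2, under the level filter and not tested, measured 0.492 and 0.630 FPKM in the NEAA samples against 1.02 and 0.952 FPKM in the control samples.

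The other cap subunits held the most abundant member, Psmd8, a lid subunit (chromosome 7, 29174188 to 29180701, minus strand). Of 14 tested models of this group 11 had a log2 fold change below 0, with a median of -0.09, against 6 of 14 and 0.05 after rescaling to the same sum. Psmd8 model 1, at 19.8 and 17.95 FPKM in the NEAA samples and 17.9 and 20.8 FPKM in the control samples, showed no separation (log2 fold change -0.03, 95% interval -0.49 to 0.42). The lower models of the same gene did. Psmd8 model 2 measured 6.41 and 4.62 FPKM in the NEAA samples, against 9.30 and 9.91 FPKM in the control samples. Psmd8 model 3 measured 4.71 and 4.02 FPKM in the NEAA samples, against 7.30 and 7.32 FPKM in the control samples. Their log2 fold changes were -0.72 (SE 0.19, limma adjusted p = 0.130) and -0.63 (SE 0.14, limma adjusted p = 0.0990). The difference between models of the gene was not tested, and the sum gave -0.33 (limma adjusted p = 0.221).

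Psmd11 and Psmd13, both scaffold subunits of the lid, each had a model that was high in 1 sample. Psmd11 model 2 measured 1.66 and 1.86 FPKM in the NEAA samples and 18.1 and 1.62 FPKM in the control samples, so only control 1 was high. Its log2 fold change was -1.36 (95% interval -4.19 to 1.47, limma adjusted p = 0.453), and 0.07 without control 1. Psmd13 model 5 measured 1.90 and 23.6 FPKM in the NEAA samples and 2.29 and 4.29 FPKM in the control samples, so only NEAA 2 was high. Its log2 fold change was 1.02 (95% interval -2.10 to 4.13, limma adjusted p = 0.604), and -0.52 without NEAA 2. Within a group, the higher sample exceeded the lower 11.1 times for Psmd11 model 2 in control and 12.4 times for Psmd13 model 5 in NEAA, where the median ratio over member models was 1.21 in either group.

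Much of the difference between samples in the summed proteasome FPKM lay in these 2 models. Without them, a choice made after their values were seen, the sum was 193.8 and 194.0 FPKM in the NEAA samples and 206 and 202 FPKM in the control samples. That was 0.770% and 0.772% of the protein-coding FPKM in the NEAA samples, and 0.80% and 0.726% in the control samples, so the groups overlapped. As a share of the FPKM of all rows it was 0.295% and 0.318% in the NEAA samples and 0.280% and 0.276% in the control samples, with NEAA higher, where the sum itself was lower in NEAA. Psmd11 model 1, the other model of that gene, measured 1.27 and 1.13 FPKM in the NEAA samples and 1.81 and 1.83 FPKM in the control samples, with the groups apart (log2 fold change -0.36, SE 0.11, limma adjusted p = 0.1604). Psmd13 model 2 measured 4.33 and 5.48 FPKM in the NEAA samples against 3.24 and 4.31 FPKM in the control samples. The genes Sirt3, on the opposite strand, and Gm15542, a pseudogene on the same strand, overlap Psmd13.

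The remaining cap subunits differed little as sums. Psmd3, a lid subunit, summed to 3.36 and 3.71 FPKM in the NEAA samples, against 4.32 and 4.30 FPKM in the control samples (log2 fold change -0.23, 95% interval -0.56 to 0.10, limma adjusted p = 0.294). Psmd3 model 3 was apart, at 1.41 and 1.68 FPKM in the NEAA samples against 2.19 and 2.14 FPKM in the control samples, and did not pass. Model 1 overlapped, at 1.66 and 1.57 against 1.76 and 1.11 FPKM. Psmd2, a large base subunit that docks ubiquitin receptors, summed to 2.34 and 2.36 FPKM in the NEAA samples, against 2.45 and 2.58 FPKM in the control samples. Psmd4, a ubiquitin receptor, summed to 2.67 and 4.06 FPKM in the NEAA samples and to 3.90 and 4.31 FPKM in the control samples. Psmd3 and Psmd2 had groups apart and Psmd4 did not. Psmd1, the other large base subunit, summed to 2.56 and 3.51 FPKM in the NEAA samples and to 3.11 and 2.82 FPKM in the control samples. The lid subunit Psmd6 summed to 7.32 and 5.97 FPKM in the NEAA samples and to 6.18 and 6.43 FPKM in the control samples, and Psmd7, partner of the cap's deubiquitinase, measured 1.31 and 1.005 FPKM in the NEAA samples against 1.08 and 1.47 FPKM in the control samples. For Psmd1, Psmd2, Psmd6 and Psmd7 the log2 fold changes of the sums lay between -0.08 and 0.06.

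**Figure D4:**
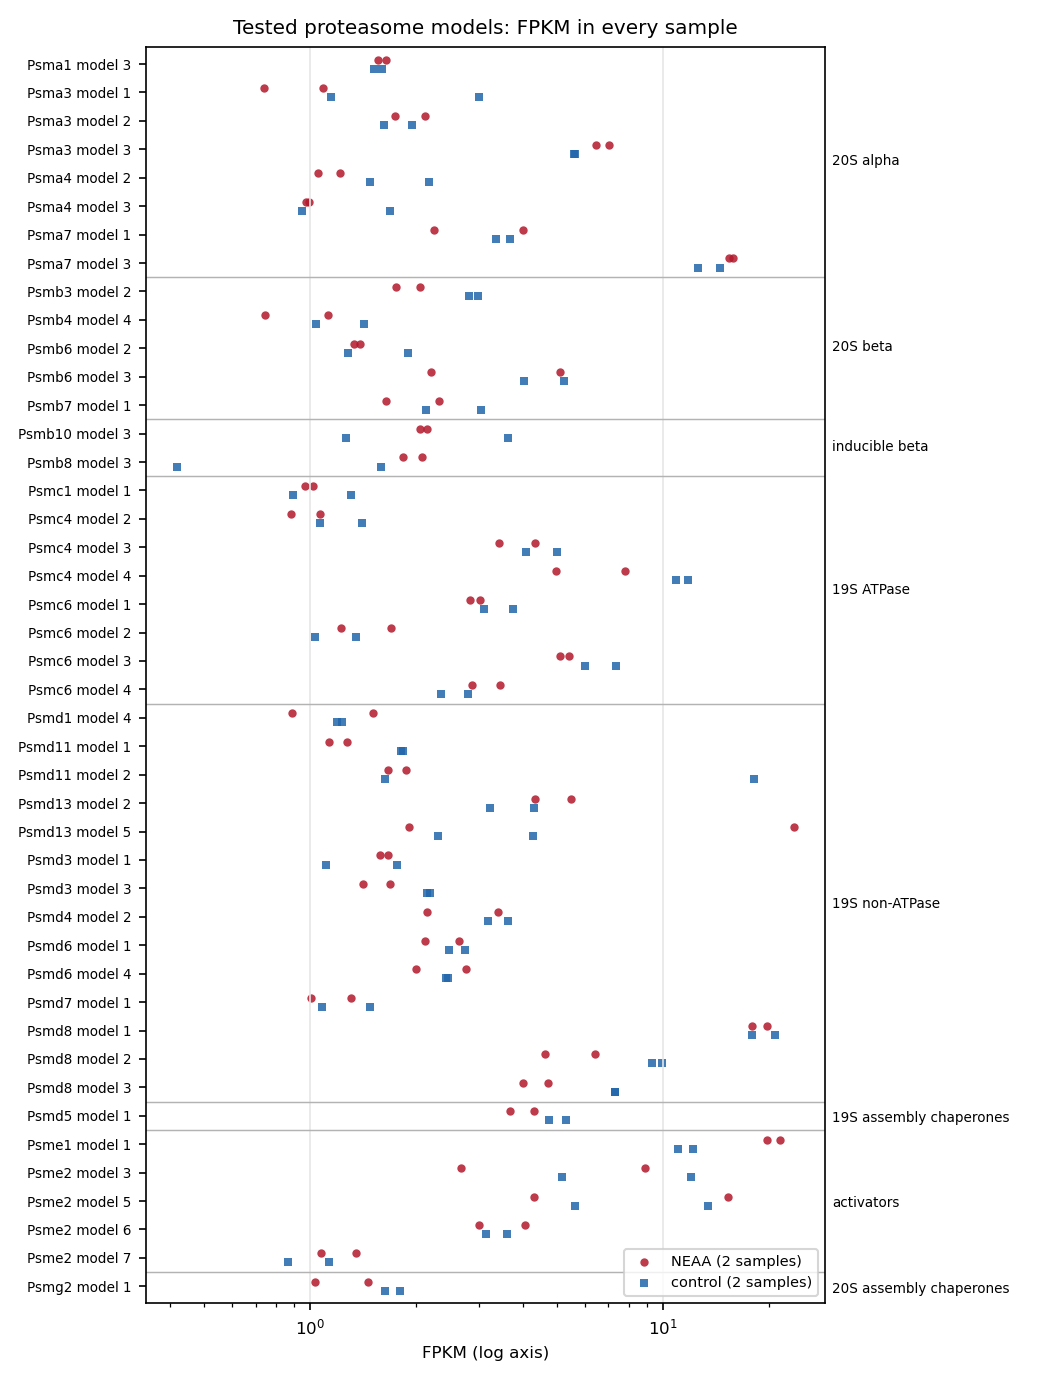
FPKM (log axis) of the 44 tested proteasome models in each sample, with NEAA samples as red circles and control samples as blue squares, ordered by role. Most models show the groups side by side or overlapping, Psmd11 model 2 has a single high control sample and Psmd13 model 5 a single high NEAA sample.

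The assembly factors measured at most 5.32 FPKM in any sample. Psmd5, a chaperone of the cap's base, measured 3.69 and 4.32 FPKM in the NEAA samples, against 4.76 and 5.32 FPKM in the control samples, on the single model whose donor sites are printed above. Both NEAA samples lay under both control samples, with a log2 fold change of -0.27 (95% interval -0.68 to 0.13, limma adjusted p = 0.321). Psmg2, a chaperone of the alpha ring, measured 1.03 and 1.46 FPKM in the NEAA samples, against 1.62 and 1.80 FPKM in the control samples (log2 fold change -0.28, 95% interval -0.70 to 0.14, limma adjusted p = 0.324). Psmg1, Psmg3 and the cap chaperone Psmd9 stayed under the filter, between 0.173 and 1.07 FPKM in every sample. The proteasome inhibitor gene Psmf1 passed only as a sum, at 1.57 and 1.26 FPKM in the NEAA samples and 1.64 and 1.82 FPKM in the control samples (log2 fold change -0.18, limma adjusted p = 0.424). Psmc3ip, the recombination factor caught by its symbol, summed to 0.785 and 0.481 FPKM in the NEAA samples and to 0.372 and 0.127 FPKM in the control samples and was not tested.

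Models of Psme2 traded places between samples of the same group. Psme2 model 3 measured 8.92 and 2.67 FPKM in the NEAA samples and 5.18 and 12.01 FPKM in the control samples. Psme2 model 5 measured 4.31 and 15.3 FPKM in the NEAA samples and 13.4 and 5.64 FPKM in the control samples. In each group the sample that was high in one model was low in the other. Their sum was 13.2 and 17.97 FPKM in the NEAA samples and 18.6 and 17.6 FPKM in the control samples, so it varied less than either model. Rows of a gene carry the same identifier and were matched across samples by their order alone, and the part of that order in the exchange was not tested. The other 5 models of Psme2 lay between 0.134 and 4.06 FPKM.

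**Figure D5:**
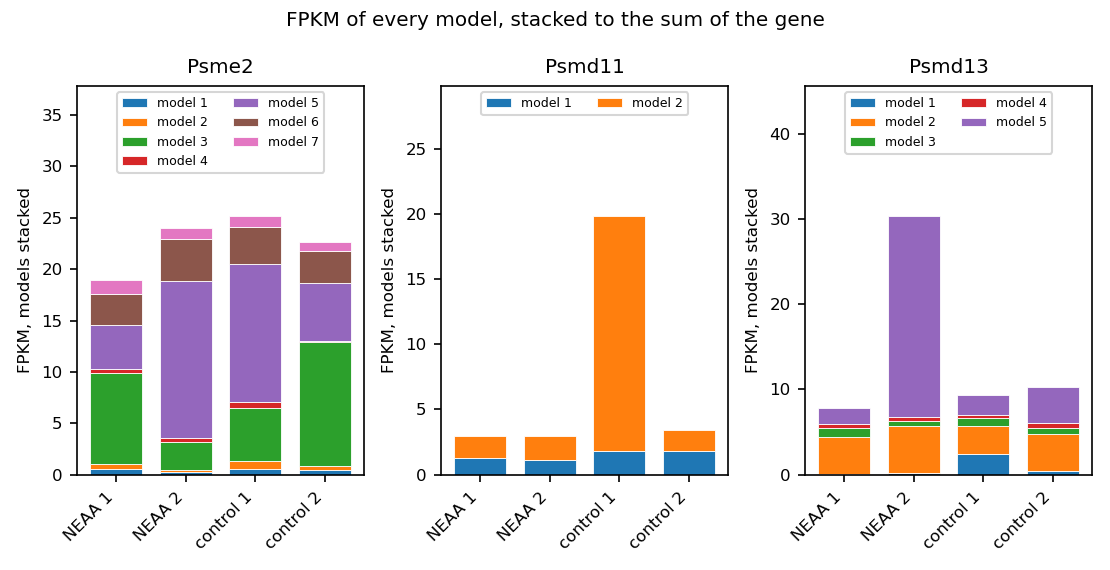
FPKM of every model of Psme2, Psmd11 and Psmd13 in each sample, stacked so that the bar height is the sum of the gene (axes from 0). Models 3 and 5 of Psme2 exchange their shares between samples, model 2 of Psmd11 fills control 1, and model 5 of Psmd13 fills NEAA 2.

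Other genes of the proteasome system, outside the symbol rule, gave 0 called models too. Of 40 listed genes 20 had values, and their 24 tested models of 15 genes had a median log2 fold change of -0.12, with 14 below 0. These 0 of 24 stand against 2.9% of all tested models. On summed FPKM 0 of 19 genes were called, against 10.1% of all genes tested, with a median of 0.00. The 4 with the smallest p were apart between groups without passing. Uba6, a ubiquitin-activating enzyme, measured 3.09 and 5.60 FPKM in the NEAA samples against 0.826 and 1.39 FPKM in the control samples (log2 fold change 1.31, limma adjusted p = 0.0590). Ube3c, a ubiquitin ligase that binds the proteasome, measured 3.95 and 2.58 FPKM in the NEAA samples against 1.23 and 1.30 FPKM in the control samples (0.89, limma adjusted p = 0.0584). Ubqln4, a shuttle that brings tagged proteins to the cap, measured 1.74 and 2.01 FPKM in the NEAA samples against 3.805 and 3.08 FPKM in the control samples (-0.62, limma adjusted p = 0.0686). Usp14, a deubiquitinase of the cap, measured 10.1 and 8.96 FPKM in the NEAA samples against 14.5 and 11.4 FPKM in the control samples (-0.40, limma adjusted p = 0.198).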

How the data were processed

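RNA was profiled in 4 samples of primary mouse hepatocytes. Per the labels' protocols, RNA was extracted with Trizol and libraries were made with the NEBNext Ultra RNA kit. The submitters' processing notes name GRCm38 and mm10, names of one assembly; the aligner, the quantification program and its strand setting were not given in the sources used here. The authors deposited FPKM per row, 1 file per sample, with gene identifiers. The 4 files hold one identical column of identifiers, and rows were joined by their order, so which model of a gene is which across samples rests on row order. Of the identifiers, 19170 of 19284 identifiers were found in GENCODE M21, which gave symbols, classes and coordinates.

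Models, and FPKM summed per gene, with a mean of at least 1 FPKM were fitted by group as log2(FPKM + 1) with limma 3.58.1 (R 4.3.3; eBayes with a mean trend), and p-values, 2-sided, were adjusted over all features tested. This scale understates changes of low values. For a single value, exact permutation of 4 samples reaches no p under 0.333, and limma pools the spread across features. The fit was tested on simulated data with the same noise for every feature, which the data here do not have. That test therefore does not show what could be detected among these members. Members, gene lists and tests were chosen with earlier results of these data known. By the naming rule every member was accounted for, with values for up to 5 of smallest p in each role and for members whose sum and models differed in sign; Psmd11 model 2, Psmd13 model 5 and the untested members shown were chosen after their values were seen. The alternatives were another pseudocount, 2 other level filters, quantile normalization, 2 rescalings, no mean trend, a replicate block and leaving out each sample, where the lone sample left in a group is assumed to vary like the other group. One gene of the interferon list is not reported here.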

Additional observations from a re-analysis of the deposited data

How the results depend on the processing

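Over all 71 tested models and sums of members (799 values under 12 alternatives), 734 kept their direction and their side of the threshold, 5 moved past the threshold, all of Psme1, and 60 turned direction, none of these past the threshold. For the 32 models and sums whose fold change, interval or p is given above, 340 of 367 were kept and 22 turned. After rescaling to the same sum the log2 fold changes that turned were 0.108 for the sum of Psmb4, 0.0938 for Psmc6, 0.0831 for Psmd2, 0.0408 for Psmd7, 0.0494 for Psme2 and 0.174 for Psmd8 model 1. Without the rows of Gm26917 and Gm42418 they were 0.0244 for Psmb4, 0.00317 for Psmd2 and 0.0665 for Psmd8 model 1, which was 0.176 by quantile normalization. Some models and sums turned with 1 sample left out, and their ranges over all fits of that kind, turned or not, follow. They ran from -2.79 to 0.0725 for Psmd11 model 2, -0.52 to 2.56 for Psmd13 model 5 and -0.11 to 0.00855 for the sum of Psmb4. For the sums of Psmb10, Psmd1 and Psmd6 they ran from -0.38 to 0.53, -0.15 to 0.19 and -0.0681 to 0.189. For the sums of Psmd7 and Psme2 they ran from -0.20 to 0.0502 and -0.32 to 0.00365. For Psmd8 model 1 the range was -0.13 to 0.0712. Beyond the samples left out, the cause was not tested. With a filter of 5 FPKM, 1 member model was called, and 1 member gene on summed FPKM was called with that filter, by quantile normalization and by either rescaling (to the same sum, with or without the rows of Gm26917 and Gm42418). In all other settings 0 were called. With a replicate block 0 member models and 0 member genes were called. The labels give same-numbered samples nothing in common but the number, and the correlation of their deviations over tested models was -0.00192. The median log2 fold change of member models ran from -0.20 to 0.00. Of all tested models, 176 were called, against 100 at a filter of 5 FPKM and 0 without a level filter, with the block or with any 1 sample left out. Of summed genes 475 were called, against 153 at 5 FPKM, 244 without a filter, 185 with the block and 0 to 88 with 1 sample left out. Calls were 118 higher and 58 lower for models and 282 and 193 for summed genes. After rescaling to the same sum they were 154 and 40, and 441 and 101. That rescaling moved the median log2 fold change of all tested models to 0.05, from -0.09. Relative to it, the member median was -0.05 in either scaling. FPKM without counts limit what can be said of models near 1 FPKM.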
